A study of Mus musculus with 8 samples.

Results

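Cell division and DNA replication were followed through 31 genes across stromal cell lines, 21 of them mitotic genes, 9 replication genes and the last the transcription factor gene E2f1. They were taken by gene symbol, as all probe sets of the array whose symbol is on the list. They make up 31 of 18194 genes named on the array, and 30 of them were among 10084 genes that reached an intensity of 100 on at least 2 arrays and were tested. Tyms, which makes thymidylate, was not among these. The series holds 8 Affymetrix Mouse Genome 430 2.0 arrays in 4 groups of 2. The groups were NIH3T3, an embryonic fibroblast line, and MC3T3, an osteoblast-like line, both given as strain Balb/c in the labels, the bone marrow stromal line OP9 of strain B6C3F1, and OP9 cells cultured together with the pre-B cell line 230-238. All RNA was labelled from 2000 cells, and the labels give no treatment other than the co-culture. The study asked how B-cell progenitors and stroma affect each other.

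Each group is 1 established line, so the 2 arrays of a group show how that line varied and not how fibroblasts, osteoblasts or stroma vary in general. The growth protocol in the labels names OP9 Strawberry cells, which carry a fluorescent protein, and the paper describes sorting such cells away from pre-B cells and a control kept in medium conditioned by the co-culture. The labels of the control arrays say only OP9 culture, so whether that control is the one on these arrays is not settled. MC3T3 replicate 2 is described in the labels as sorted cells and replicate 1 as a culture. The labels speak of biological replicates but describe no separate cultures, and the p-values therefore reflect only how far 2 arrays of a group lay apart, which could be technical. Array medians lay between 41.77 and 44.99 and 34.3 to 36.3% of probe sets reached 100. Of 13 stromal markers, 11 to 13 reached 100 on each array, and Col1a2, Vim and Fn1 were high on all 8. Of 6 named osteoblast markers, 2 reached 100 on each MC3T3 array. The bone-forming cell markers Alpl, Ibsp and Sp7 stayed under 100 there, and Dmp1, a matrix protein of the osteocyte lineage, read 970 and 1142. Of the same list, Postn was higher in MC3T3 than in NIH3T3 (log2 difference 5.88) and Phex lower (-2.17).

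Cells that divide copy their DNA in S phase and separate the copies in mitosis, and genes for both tasks are transcribed in waves. Replication genes are switched on by E2F factors near the start of S phase, while mitotic genes follow in G2 through the DREAM and MuvB complexes, B-MYB and FOXM1, which act at a short element, the cell cycle genes homology region (CHR), often beside CCAAT boxes bound by NF-Y. Levels of these genes in a culture therefore follow how many of its cells are in cycle, and stromal layers can go on dividing or come to rest at confluence. In RNA taken from many cells together, fewer cells in division and less RNA in each dividing cell cannot be told apart.

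The promoters of the 2 classes carried different letters. RefSeq windows of GRCm38.p6, from 250 bases before to 50 after the start, were given for 17 of 21 mitotic genes, 8 of 9 replication genes and E2f1. A CHR, searched as TTTGAA or TTCGAA on both strands, was found in 13 of 17 mitotic genes (76.5%) and 2 of 8 replication genes (25%), against 21.7% of 27025 genes in the table. The CCAAT box, searched as CCAAT, was found in 14 of 17 mitotic genes (82.4%) and 7 of 8 replication genes (87.5%), against 41.1% of all genes. An E2F site, searched as TTTGGCGC, TTTGCCGC, TTTCGCGC or TTTCCCGC, was found in 1 of 17 mitotic genes (5.88%) and 4 of 8 replication genes (50%), against 2.6% of all genes. The 4 replication genes were Mcm3, Mcm5, Mcm6 and Mcm7, the mitotic gene was Cdk1, and the E2f1 window held none of the motifs. Matches can overlap, as in the joined capitals of Ube2c and Mcm6 below, TTCGAA reads the same on both strands, and a match describes the sequence and not a bound site. Upstream bases are shown for the 4 mitotic genes with a CHR and the 2 replication genes with an E2F site that had the highest mean level. These windows were picked for holding the motif of their class, so they illustrate the matches and cannot show how the classes differ. Pcna, Mad2l1 and Birc5, which lack that motif, were passed over. Capitals mark the CHR, CCAAT and E2F matches on either strand, and the last base is the one before the start.
Cdc20, chr4:118437344-118437403, minus strand: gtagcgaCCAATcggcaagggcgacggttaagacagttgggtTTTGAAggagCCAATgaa
Ube2c, chr2:164769699-164769928, plus strand: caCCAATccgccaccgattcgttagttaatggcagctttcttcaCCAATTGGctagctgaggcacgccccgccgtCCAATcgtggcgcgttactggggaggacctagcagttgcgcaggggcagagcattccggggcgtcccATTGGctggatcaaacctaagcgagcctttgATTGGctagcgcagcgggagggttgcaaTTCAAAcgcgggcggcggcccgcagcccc
Top2a, chr11:99024190-99024419, minus strand: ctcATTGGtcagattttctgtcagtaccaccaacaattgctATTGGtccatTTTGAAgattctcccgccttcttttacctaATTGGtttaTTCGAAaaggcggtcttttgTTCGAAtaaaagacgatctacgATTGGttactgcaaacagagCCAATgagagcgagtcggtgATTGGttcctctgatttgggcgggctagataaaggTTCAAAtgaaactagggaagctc
Cdk1, chr10:69352913-69353122, minus strand: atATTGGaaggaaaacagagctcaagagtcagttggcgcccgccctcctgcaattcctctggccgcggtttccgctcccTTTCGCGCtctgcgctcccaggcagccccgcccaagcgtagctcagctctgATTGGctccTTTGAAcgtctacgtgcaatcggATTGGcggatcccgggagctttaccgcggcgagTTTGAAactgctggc
Mcm7, chr5:138171884-138172063, minus strand: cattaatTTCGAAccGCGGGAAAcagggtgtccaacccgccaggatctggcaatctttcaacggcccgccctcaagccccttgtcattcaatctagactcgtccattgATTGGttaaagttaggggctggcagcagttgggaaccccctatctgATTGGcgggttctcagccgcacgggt
Mcm6, chr1:128359706-128359815, minus strand: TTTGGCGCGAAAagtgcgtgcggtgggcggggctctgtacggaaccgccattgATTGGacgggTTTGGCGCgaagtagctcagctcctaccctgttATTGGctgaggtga

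The CHR nearest to the start began 18 bases upstream in Cdc20, 29 in Ube2c, 23 in Top2a and 15 in Cdk1. Top2a held 4 CHR and 6 CCAAT matches in its whole window. Mcm7 also held a CHR, 173 bases upstream, whereas the Mcm6 window held 3 E2F matches, 2 of them overlapping, and no CHR. Among further genes of the same processes that are not members, 33 of 44 mitotic genes had a CHR and 4 an E2F site, and 9 of 42 replication genes had a CHR and 15 an E2F site.

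**Figure D1:**
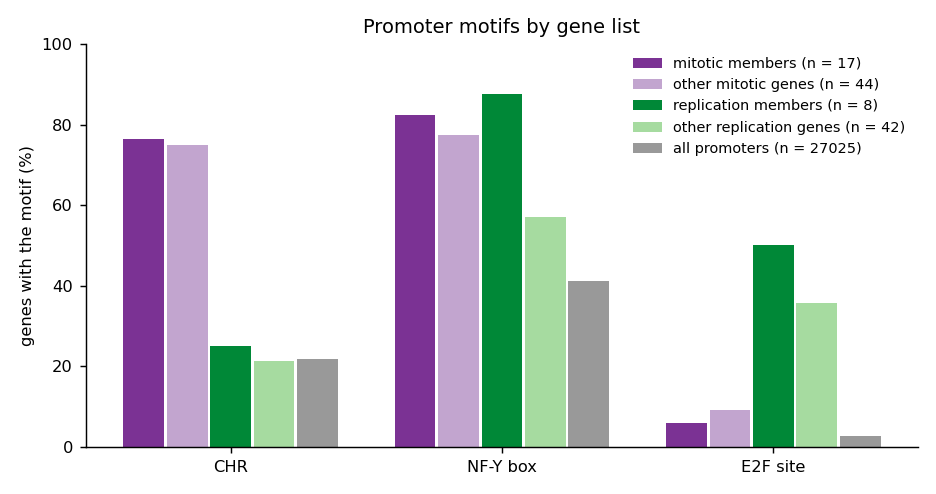
Share of genes, in percent, whose promoter window held a CHR, an NF-Y box (the CCAAT match) or an E2F site, for each gene list and for all 27025 genes of the table; bars start at 0. The CHR bars are high in both mitotic lists (76.5% and 75%) and near the background of 21.7% in both replication lists, and the E2F bars are high in the replication lists.

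Each gene's level was the deposited normalized intensity of the probe set that was brightest on average, and levels are compared between groups for 1 gene and not between genes. Both MC3T3 arrays lay above all 6 others in 30 of 30 tested members, an order found in 22.4% of the 10084 genes. Both co-culture arrays lay below all 6 others in 23 of 30, against 15.7% of all genes. The median level of the 21 mitotic genes was 457 and 465 on the OP9 arrays, 229.9 and 213 in co-culture, 309.5 and 323 in NIH3T3 and 1298 and 1225 in MC3T3. That of the 8 tested replication genes was 642 and 569 in OP9, 488 and 493 in co-culture, 596 and 616 in NIH3T3 and 2481 and 2369.5 in MC3T3. The median absolute log2 difference between the 2 arrays of a group over the members was 0.08 in OP9, 0.08 in co-culture, 0.13 in NIH3T3 and 0.09 in MC3T3, and no member differed by 2-fold within a group.

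**Figure D2:**
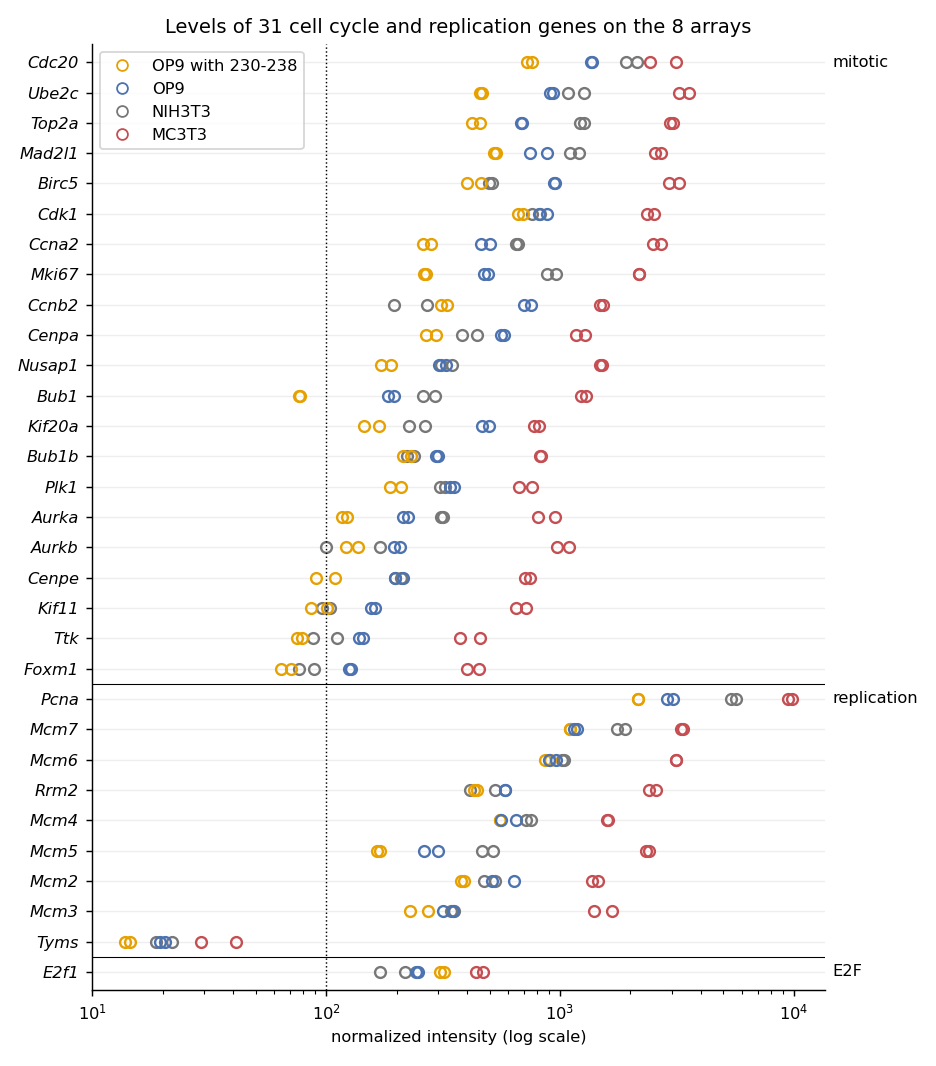
Normalized intensity (log scale) of the 31 genes, each circle 1 array, coloured by group and sorted by mean within mitotic genes, replication genes and E2f1; the dotted line marks 100. The red MC3T3 circles lie to the right in all 30 tested genes, the yellow co-culture circles lie to the left of all others in 23 of 30, and Tyms lies below 100 on all arrays.

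Among the cyclins and their kinase, Ccnb2, the B2 cyclin of mitosis, read 754 and 702 in OP9, 309 and 329.8 in co-culture, 194.6 and 270.3 in NIH3T3 and 1489.5 and 1521 in MC3T3. Ccna2, cyclin A2 of S and G2 phase, read 457 and 504 in OP9, 260 and 281 in co-culture, 646 and 663 in NIH3T3 and 2508 and 2710.5 in MC3T3. Cdk1, the kinase both partner with, read 880 and 813 in OP9, 663 and 694 in co-culture, 759.7 and 819 in NIH3T3 and 2357 and 2524 in MC3T3. NIH3T3 was thus lowest for Ccnb2 and above OP9 for Ccna2, and for Cdk1 the OP9 and NIH3T3 arrays overlapped. Foxm1, the factor that drives G2 genes, read 127 and 125 in OP9, 64.4 and 70.8 in co-culture, 76.9 and 88.8 in NIH3T3 and 448 and 401 in MC3T3. Mki67, the Ki-67 proliferation marker that coats mitotic chromosomes, read 492 and 472 in OP9, 263 and 267 in co-culture, 957 and 877 in NIH3T3 and 2179.8 and 2174 in MC3T3. Top2a, the topoisomerase that untangles sister chromatids, read 685 and 690 in OP9, 453 and 419 in co-culture, 1262 and 1215 in NIH3T3 and 3053 and 2963 in MC3T3. Mki67 and Top2a shared the order MC3T3, NIH3T3, OP9 and co-culture with no overlap between groups.

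Of the mitotic kinases, Aurka, which acts at spindle poles, read 213 and 223 in OP9, 122 and 117 in co-culture, 311 and 316 in NIH3T3 and 803 and 948 in MC3T3. Aurkb, of the chromosomal passenger complex, read 195.1 and 207 in OP9, 136 and 121 in co-culture, 99.5 and 169.9 in NIH3T3 and 1092 and 974 in MC3T3. Plk1, which acts from mitotic entry to exit, read 338 and 353 in OP9, 208 and 187 in co-culture, 308 and 322 in NIH3T3 and 759 and 666 in MC3T3. The NIH3T3 arrays were farthest apart for Aurkb and enclosed the co-culture values. Birc5, the survivin subunit of the passenger complex, read 951 and 941 in OP9, 401 and 459 in co-culture, 509.9 and 497 in NIH3T3 and 3242 and 2932 in MC3T3. Kif20a, a kinesin of cytokinesis, read 495 and 465 in OP9, 146 and 168 in co-culture, 227 and 264 in NIH3T3 and 772 and 814 in MC3T3. Kif11, the kinesin that pushes spindle poles apart, read 162 and 155 in OP9, 86.5 and 100.5 in co-culture, 95.9 and 104 in NIH3T3 and 651 and 713 in MC3T3. In these 3 genes OP9 lay above both NIH3T3 and co-culture.

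In the spindle checkpoint, Bub1, a kinase at unattached kinetochores, read 194.6 and 183 in OP9, 76.9 and 77.1 in co-culture, 260.3 and 292 in NIH3T3 and 1298 and 1224.5 in MC3T3. Bub1b, which encodes BubR1, read 295 and 299.8 in OP9, 229.9 and 213 in co-culture, 237 and 222 in NIH3T3 and 819.9 and 832 in MC3T3. Mad2l1, which holds back the anaphase-promoting complex, read 747 and 878 in OP9, 524 and 535 in co-culture, 1102 and 1209.9 in NIH3T3 and 2545 and 2699 in MC3T3. Only Bub1b of the 3 had co-culture arrays that overlapped NIH3T3. Ttk, the kinase that starts the checkpoint, read 139 and 144 in OP9, 74.8 and 79.2 in co-culture, 88.0 and 111 in NIH3T3 and 375 and 454 in MC3T3. Cdc20, the activator of the anaphase-promoting complex, read 1359 and 1365 in OP9, 757 and 721 in co-culture, 1923 and 2144 in NIH3T3 and 3122 and 2418 in MC3T3. Ube2c, a ubiquitin-conjugating enzyme of that complex, read 904 and 938 in OP9, 464 and 457 in co-culture, 1085 and 1272 in NIH3T3 and 3244 and 3554 in MC3T3. Cdc20 had the widest gap between the MC3T3 arrays of all members. At the centromere, Cenpa, the histone H3 variant, read 576 and 561 in OP9, 296 and 266 in co-culture, 379.8 and 441 in NIH3T3 and 1274 and 1167 in MC3T3. Cenpe, a kinetochore kinesin, read 214 and 196 in OP9, 109 and 90.8 in co-culture, 196 and 209 in NIH3T3 and 708 and 744 in MC3T3. Nusap1, which bundles spindle microtubules, read 305 and 324 in OP9, 189.5 and 171 in co-culture, 309.5 and 346 in NIH3T3 and 1480.3 and 1507 in MC3T3. OP9 and NIH3T3 overlapped for Cenpe and Nusap1, and co-culture lay below both lines in all 3.

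The replication genes include the subunits of the MCM helicase. Mcm2, one of these subunits, which unwind DNA at origins, read 633 and 513 in OP9, 379 and 388 in co-culture, 473 and 525 in NIH3T3 and 1454 and 1369.8 in MC3T3. Mcm3 read 349.5 and 317 in OP9, 228 and 274 in co-culture, 354 and 343 in NIH3T3 and 1677 and 1399 in MC3T3. Mcm4 read 650.4 and 559 in OP9, 557 and 551 in co-culture, 750 and 718 in NIH3T3 and 1598 and 1584 in MC3T3. For Mcm4 the lower OP9 array stood next to the co-culture arrays. Mcm5 read 299.8 and 262 in OP9, 165 and 169.5 in co-culture, 466 and 519 in NIH3T3 and 2397 and 2328 in MC3T3. Mcm6 read 900 and 961 in OP9, 911 and 866 in co-culture, 1042 and 1017 in NIH3T3 and 3144 on both arrays of MC3T3. Mcm7 read 1177 and 1154 in OP9, 1108 and 1109 in co-culture, 1754 and 1898 in NIH3T3 and 3342 and 3289.8 in MC3T3. Of the 6 helicase subunits, Mcm6 alone had OP9 and co-culture arrays that overlapped, and Mcm5 had the largest log2 difference between them. Pcna, the sliding clamp of the DNA polymerases, read 3058 and 2872 in OP9, 2148 and 2167 in co-culture, 5402 and 5658 in NIH3T3 and 9811 and 9487 in MC3T3. Rrm2, the ribonucleotide reductase subunit made in S phase, read 585 and 580 in OP9, 427 and 440.4 in co-culture, 412 and 528 in NIH3T3 and 2567 and 2412 in MC3T3. E2f1, an activator of S-phase genes, read 241 and 246 in OP9, 307 and 321 in co-culture, 217 and 171 in NIH3T3 and 437 and 467 in MC3T3. E2f1 was the only one of the 30 with both co-culture arrays above both OP9 arrays.

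In co-culture with 230-238 cells, OP9 cells had lower levels of all mitotic genes and of part of the replication genes. With limma and a Benjamini-Hochberg adjustment over all 10084 genes, 6 of 30 members fell by at least 2-fold at an adjusted p below 0.05 and 0 rose, where 5.67% of all genes were called in either direction, 2.97% downwards and 2.71% upwards. These 6 were all mitotic. Without a minimum fold, all 21 mitotic genes and 5 of 8 replication genes fell and E2f1 rose, where 42.8% of all genes were called, 26.2% downwards and 16.6% upwards. The median log2 difference, co-culture minus OP9, was -0.86 over the mitotic and -0.42 over the replication genes, against -0.05 over all genes, and the gap between the classes was not tested.

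Kif20a fell 3.06-fold (log2 difference -1.62 ± 0.10 SE, n = 2 arrays a group, adjusted p = 2.75e-05 in limma). Bub1 fell 2.45-fold (-1.29 ± 0.08, limma adjusted p = 2.39e-05), and Ccnb2 2.28-fold (-1.19 ± 0.14, limma adjusted p = 0.00052). Birc5 fell 2.21-fold, Cenpe 2.06-fold and Cenpa 2.02-fold, with limma adjusted p of 6.8e-05, 0.000211 and 0.000194. Apart from the cyclin gene Ccnb2, these encode proteins of the centromere, the spindle or cell separation. The smallest mitotic difference was that of Cdk1, at -0.32 ± 0.08 (limma adjusted p = 0.0149), and 16 of 21 mitotic genes lay below Mcm5, the replication gene that fell farthest, at -0.74 ± 0.09 (limma adjusted p = 0.000569). A dimmer Mcm5 probe set that also passed the filter read 116.2 and 114.6 in OP9 and 67.2 and 49.3 in co-culture. That probe set fell farther, just past 2-fold, so the number of mitotic genes below Mcm5 depends on the probe set. Mki67 fell by 0.86 on the log2 scale with a limma adjusted p of 9.28e-05.

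The helicase subunits did not move as 1 block in the test. Besides Mcm5, Mcm2 fell by 0.57 on the log2 scale and Mcm3 by 0.41, with limma adjusted p of 0.00459 and 0.0266. Mcm4 (-0.12), Mcm7 (-0.07) and Mcm6 (-0.07) did not pass, with limma adjusted p of 0.286, 0.428 and 0.467. Pcna fell by 0.46 and Rrm2 by 0.43, with limma adjusted p of 0.00154 and 0.02. E2f1 rose by 0.36 ± 0.11 (limma adjusted p = 0.0342), a call lost when any 1 of the OP9, co-culture or MC3T3 arrays was left out, with adjusted p between 0.0536 and 0.149. Aurkb was lost in the same 6 settings with adjusted p between 0.0742 and 0.196. Rrm2 was lost when any 1 of the OP9 or co-culture arrays was left out (limma adjusted p 0.074 to 0.101), Mcm3 without co-culture replicate 1 or either OP9 array (0.0612 to 0.167), and Cdk1 without either co-culture array or OP9 replicate 1 (0.0515 to 0.107). The number of members that fell by 2-fold was 4 without co-culture replicate 2 and 7 without co-culture replicate 1, and members called without a minimum fold numbered 22 to 27 with 1 array left out. The 13 mitotic genes with a CHR had a median difference of -0.86 and the 4 without one -0.92, so the classes overlapped. For the 4 replication genes with an E2F site the median was -0.24, and for the 3 without -0.46.

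**Figure D3:**
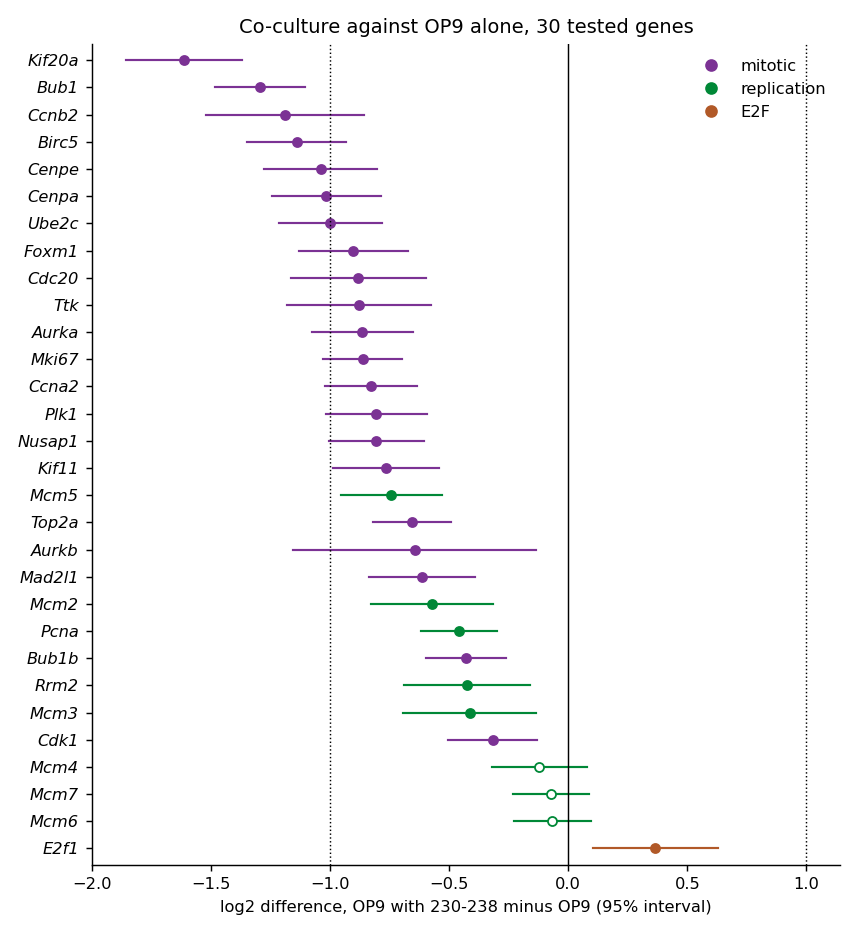
Fitted log2 difference, co-culture minus OP9, with its 95% interval for the 30 tested genes, sorted and coloured by class; filled points passed an adjusted p of 0.05 in limma and dotted lines mark 2-fold. Mitotic genes fill the left end from Kif20a at -1.62, replication genes lie between -0.74 and -0.07, and E2f1 at 0.36 stands alone on the right.

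The other genes of these processes were described by counts. Of 51 further mitotic genes tested, 14 fell by at least 2-fold and 0 rose, 47 fell without a minimum fold, and their median was -0.83. The farthest were Nuf2, of the outer kinetochore (-1.34), Ect2, which starts the cleavage furrow (-1.29), Cenpf, a kinetochore protein (-1.28), and Kif2c, a microtubule-depolymerizing kinesin (-1.15). Of 47 further replication genes, 1 fell by 2-fold, Cdc7, the kinase that fires origins (-1.16), and without a minimum fold 12 fell and 4 rose, with a median of -0.15. Of all genes, 2.97% fell by 2-fold, and without a minimum fold 26.2% fell and 16.6% rose. These replication genes were thus called no more often than genes in general, at 34% against 42.8% without a minimum fold.

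Markers of lymphoid cells were read on the same arrays. Of 14 named pre-B cell markers, 3 reached the test and 0 were called in limma between co-culture and OP9. Their summed level was 842.5 to 871 in NIH3T3 and 601 to 652 in MC3T3, which were grown without lymphoid cells. The NIH3T3 sum includes Blnk and Igll1, which were 6.12-fold and 2.01-fold lower in OP9 than there. On each NIH3T3 array 3 of the markers reached 100, and on every other array 1. The sum was 774 to 807 in co-culture and 602 to 606 in OP9. Vpreb1, of the surrogate light chain, read 77.7 and 76.0 in co-culture against 25.8 and 21.6, and Cd79a, of the B-cell receptor, read 38.0 and 51.4 against 33.8 and 34.0. Both were too dim to be tested, so neither could have been called. Rag1, of the recombinase of lymphoid precursors, stayed between 10.6 and 13.1 in both groups. Of 13 named leukocyte markers, 3 reached the test and 1 was called, Coro1a (log2 difference 2.27), and their summed level was 656 to 671 in co-culture, 391 to 394 in OP9, 443 to 562 in NIH3T3 and 408 to 418 in MC3T3. On the OP9 and MC3T3 arrays 0 of the 13 reached 100. Coro1a thus needed the co-culture arrays, where it was high, to enter the test, and its call is no separate support. Ptprc, which encodes CD45, read 34.6 and 31.1 in co-culture against 8.9 and 8.6 in OP9 and was too dim to be tested. The part of lymphoid RNA in the differences above was not tested. Summed stromal markers were 126461 to 126941 in co-culture and 119118 to 121349 in OP9, with 0 of 13 called at 2-fold, and 3 of 3 tested genes of the osteoblast list were lower by 2-fold in co-culture.

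Between OP9 and NIH3T3 cells the members had no common direction and were called no more often than genes in general. Of 30 members, Ccnb2 alone passed at 2-fold, where 30.8% of all genes were called, 20.5% upwards and 10.3% downwards. It was 3.17-fold higher in OP9 (log2 difference 1.67 ± 0.14, limma adjusted p = 1.72e-05). Without a minimum fold, 11 members were higher and 12 lower in OP9, where 77.9% of all genes were called, 46.2% as higher and 31.7% as lower. The median difference, OP9 minus NIH3T3, was 0.10 over the mitotic and -0.21 over the replication genes, against 0.16 over all genes. This comparison and the 2 others with OP9 share the 2 OP9 arrays.

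Among the mitotic genes 9 were higher in OP9 and 8 lower. Kif20a was higher by 0.97, Birc5 by 0.91 and Kif11 by 0.67 on the log2 scale, with limma adjusted p of 6.75e-05, 3.68e-05 and 0.000345. Mki67 (-0.93), Top2a (-0.85) and Cdc20 (-0.58) were lower, with limma adjusted p of 9.49e-06, 1.4e-05 and 0.00294. Of the replication genes Pcna (-0.90), Mcm5 (-0.81), Mcm7 (-0.65) and Mcm4 (-0.28) were lower in OP9 and Rrm2 (0.32) higher, with limma adjusted p of 9.19e-06, 8.24e-05, 5.94e-05, 0.016 and 0.0327. The call of Rrm2 was lost in 10 alternative settings (limma adjusted p 0.0534 to 0.13), among them those without NIH3T3 replicate 1 or any 1 of the OP9 and co-culture arrays. That of Mcm4 was lost without OP9 replicate 2 (limma adjusted p = 0.119), on the compared arrays alone (0.0584) and with probe sets averaged (log2 difference -0.020, limma adjusted p = 0.842). Of the other called members, Aurkb was lost without NIH3T3 replicate 1 or either OP9 array. E2f1 was lost without NIH3T3 replicate 2 or either OP9 array, and Ube2c without OP9 replicate 1. Mcm2 gained a call without OP9 replicate 2. After quantile normalization Aurkb, Bub1b and E2f1 were lost and Nusap1 and Mcm6 gained. On the compared arrays alone Aurkb and E2f1 were lost, and with probe sets averaged Ccna2, Foxm1 and Bub1. Mcm6 also gained a call with a trended robust prior, and Mcm2 as lower without _x_at and _s_at probe sets. The count at 2-fold was 3 without NIH3T3 replicate 2, when Aurkb and Kif20a joined Ccnb2, 2 without OP9 replicate 2, 2 after median scaling and 3 after quantile normalization, when Mki67 and Pcna joined it as lower. Probe sets of the same gene disagreed in sign for Bub1, Ccna2, Mcm2, Mcm3, Mcm4 and Mcm6 here, so the direction of these 6 depends on the probe set.

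MC3T3 cells had the highest levels of the whole set. Against MC3T3, 28 of 30 members were at least 2-fold lower in OP9 and 0 higher, where 19.9% of all genes were called, 9.41% as lower and 10.5% as higher. The other two, Kif20a (1.65-fold lower, limma adjusted p = 0.000492) and E2f1 (1.85-fold lower, limma adjusted p = 0.000245), passed without a minimum fold, so that 30 of 30 were lower where 66.6% of all genes were called, 31% as lower and 35.6% as higher. Mcm5 was 8.44-fold lower in OP9 (log2 difference -3.08 ± 0.09, limma adjusted p = 8.61e-08), the largest difference of any member. Bub1 was 6.68-fold, Ccna2 5.43-fold and Aurkb 5.13-fold lower, with limma adjusted p of 8.62e-08, 1.78e-07 and 4.26e-05. Among replication genes Mcm3 (4.6-fold) and Rrm2 (4.27-fold) followed Mcm5. The median difference was -1.75 over the mitotic and -1.73 over the replication genes, against 0.03 over all genes.

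The further genes of the 2 processes were lower in OP9 too. At 2-fold, 42 of 51 mitotic genes were lower and 0 higher, with Melk (-2.92), Smc2 of the condensin complex (-2.67), Ect2 (-2.58) and Cdc25b, a phosphatase that activates CDKs (-2.56), the farthest. Of 47 replication genes 37 were lower, with the origin loading factor Cdc6 (-3.58), the chromatin assembly subunit Chaf1b (-2.95), the DNA methylation factor Uhrf1 (-2.88) and the licensing factor Cdt1 (-2.63) the farthest. Among all genes, 9.41% were called lower and 10.5% higher at 2-fold.

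MC3T3 also lay above NIH3T3. At 2-fold 27 of 30 members were higher in MC3T3 and 0 lower, where 27.4% of all genes were called, 17.8% as higher and 9.65% as lower. Without a minimum fold 30 of 30 were higher, where 74.8% of all genes were called, 43.8% as higher and 31% as lower. The exceptions at 2-fold were Cdc20 (log2 difference 0.44, limma adjusted p = 0.0122), Mcm7 (0.86, limma adjusted p = 1.3e-05) and Pcna (0.80, limma adjusted p = 1.99e-05). Cdc20 lost its call without MC3T3 replicate 1, with a limma adjusted p of 0.061. The largest differences were those of Aurkb (7.93-fold), Kif11 (6.83-fold) and Ccnb2 (6.56-fold) among mitotic genes, with limma adjusted p of 8.49e-06, 1.65e-07 and 1.34e-06, and of Rrm2 (5.33-fold), Mcm5 (4.8-fold) and Mcm3 (4.39-fold) among replication genes, with limma adjusted p of 7.79e-07, 3.41e-07 and 1.92e-06. The median difference was 1.84 over the mitotic and 1.56 over the replication genes, against 0.12 over all genes. With MC3T3 replicate 2 of sorted cells left out, or any other single array, 27 members were called at 2-fold. Of the further genes, 39 of 51 mitotic and 25 of 47 replication genes were higher by 2-fold, led by Nuf2 (3.71), Pbk (3.24), Melk (2.94) and Spc25 (2.80), and by Uhrf1 (2.61), Cdc6 (2.40), the histone chaperone Asf1b (2.29) and Gins2 (2.18).

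**Figure D4:**
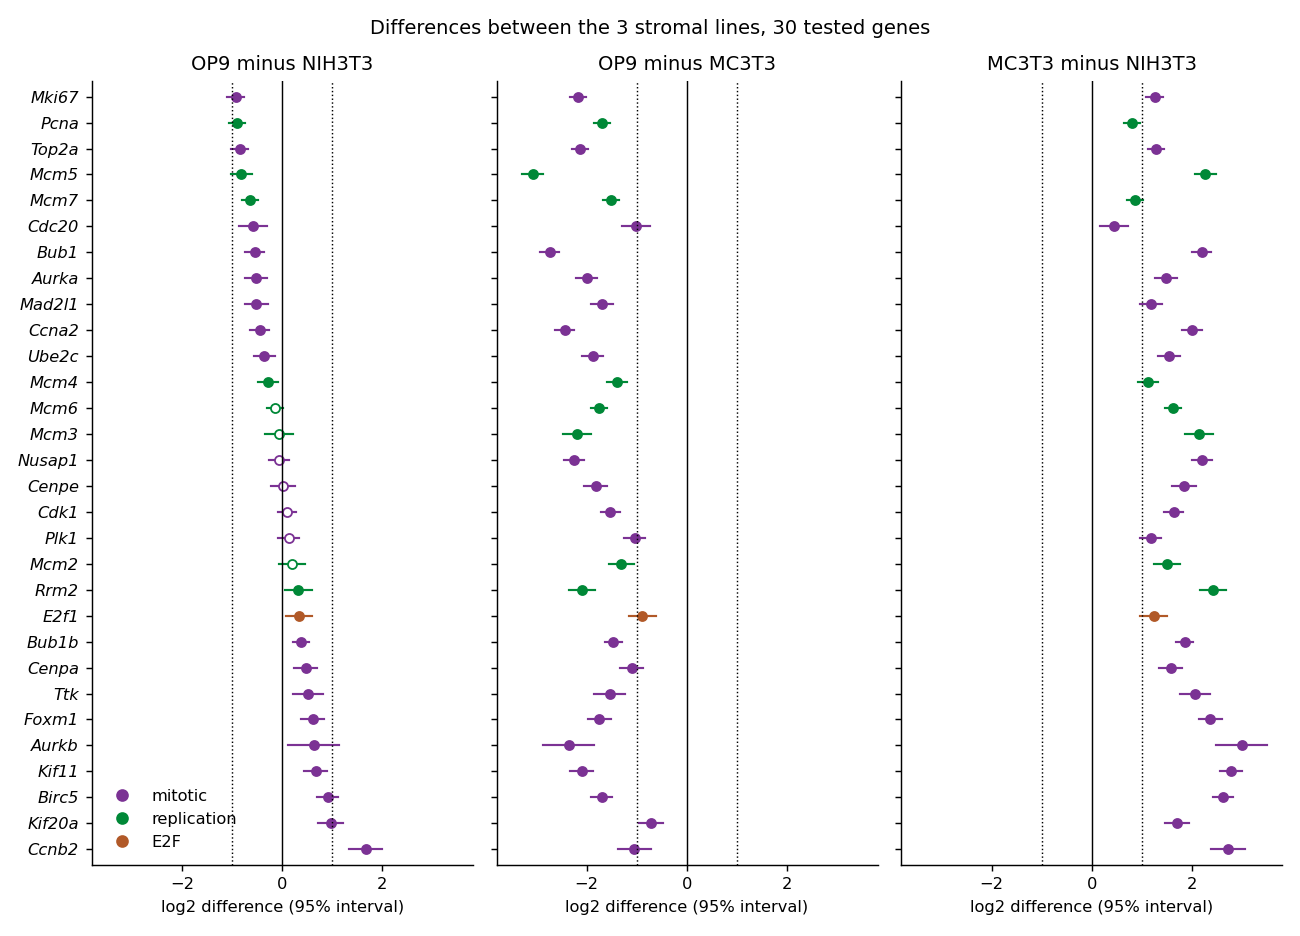
Fitted log2 differences with 95% intervals between the 3 lines for the 30 tested genes, in the order of the first panel and coloured by class; filled points passed an adjusted p of 0.05 in limma and dotted lines mark 2-fold. Points lie on both sides of 0 between OP9 and NIH3T3, whereas all 30 lie below 0 for OP9 minus MC3T3 and above 0 for MC3T3 minus NIH3T3.

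Comparing OP9 with NIH3T3, 6 of 51 further mitotic genes were higher and 4 lower at 2-fold, led by Nuf2 (2.39), the checkpoint gene Kntc1 (-1.90), Spc25 (1.67) and Cdc25c (-1.40). Of 47 replication genes, 1 was higher and 6 lower, led by Dbf4, the partner of Cdc7 (-1.73), Cdt1 (-1.60), Dtymk of thymidine nucleotide synthesis (1.48) and Wdhd1 (-1.47). Both lists were called less often than genes in general, at 19.6% and 14.9% against 30.8% of all genes.

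The genes that hold the cycle back or let it start moved in both directions. Of 8 inhibitors of cyclin-dependent kinases, Cdkn1a, which encodes p21, read 4849.9 and 4857 in OP9, 4297 and 4304 in co-culture, 4506 and 4474 in NIH3T3 and 4447 and 4611 in MC3T3, and passed in no comparison. Cdkn2a, which encodes p16 and p19ARF, read 50.7 and 50.8 in OP9, 108 and 120.5 in co-culture, 18.5 and 19.7 in NIH3T3 and 12.3 and 13.7 in MC3T3. It was 2.25-fold higher in co-culture than in OP9 (limma adjusted p = 5.55e-05). Cdkn2a reached 100 only on the co-culture arrays. It thus entered the test only through the group where it was highest, and its p-value is no separate support. Cdkn3, a phosphatase that acts on CDKs, read 302 and 305 in OP9, 138 and 145 in co-culture, 165 and 172 in NIH3T3 and 765 and 761 in MC3T3, and fell 2.14-fold in co-culture (limma adjusted p = 2.07e-05). Cdkn2b, which encodes p15, read 984 and 1066 in OP9, 1333 and 1421 in co-culture and 19.4 to 32.8 on the 4 arrays of the other lines, which made it 37.5-fold higher in OP9 than in NIH3T3 and 46.4-fold higher than in MC3T3 (limma adjusted p = 1.4e-07 and 1.59e-07). Levels this far under 100 lie near background, where folds are compressed. Cdkn2b, too, reached 100 only in OP9 and co-culture, the groups where it was high. Its p-values between the lines are therefore no separate support.

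Cdkn2c, which encodes p18, fell by 0.65 on the log2 scale in co-culture and was lower in OP9 than in NIH3T3 (-1.32), and Cdkn2d rose by 0.24 in co-culture and was lower in OP9 than in MC3T3 (-1.25), all called in limma. Cdkn1b, which encodes p27, differed by 0.06 between co-culture and OP9 (limma adjusted p = 0.614) and was higher in OP9 than in NIH3T3 (0.57). Cdkn1c stayed between 14.3 and 18.3 on all arrays and was not tested.

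Myc, a driver of entry into the cycle, read 231 and 228 in OP9, 538 and 599.9 in co-culture, 2668 and 2893 in NIH3T3 and 565 and 561 in MC3T3. It rose 2.48-fold in co-culture (limma adjusted p = 2.15e-05), the 1 gene of 28 tested cyclins, CDKs and E2F-RB regulators past 2-fold there. Without a minimum fold, 4 of the 28 rose and 11 fell, where 16.6% of all genes rose and 26.2% fell. Between the lines, OP9 had less Myc (-3.60) and Cdk6 (-3.49) and more E2f6 (2.88) and Cdk2 (2.56) than NIH3T3, and less Ccne2 (-3.39), E2f8 (-2.67), E2f7 (-2.66) and Fbxo5 (-1.94) than MC3T3. MC3T3 had more E2f6 (4.44), E2f7 (3.02), Ccne2 (2.76) and Cdk2 (2.69) than NIH3T3, all called at 2-fold in limma, so that MC3T3, the line highest in the members, was not the highest in Myc.

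**Figure D5:**
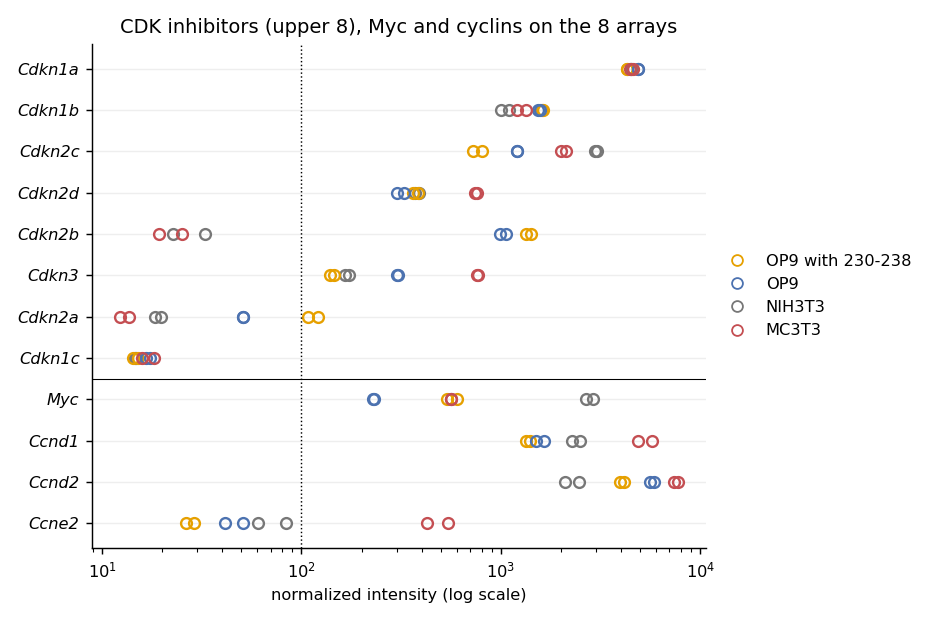
Normalized intensity (log scale) of the 8 CDK inhibitor genes above the line and of Myc, Ccnd1, Ccnd2 and Ccne2 below it, each circle 1 array, coloured by group; the dotted line marks 100. Cdkn2b separates both OP9 groups (984 to 1421) from the other lines (19.4 to 32.8), Cdkn2a is highest in co-culture, and Myc is highest in NIH3T3. Ccnd1 and Ccnd2 were added to the plot after their values were seen.

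More than 1 probe set gave a further reading for many members. The 31 genes had 71 named probe sets, of which 54 passed the filter, and 16 members had several. All 54 were lower in OP9 than in MC3T3 and all 54 were higher in MC3T3 than in NIH3T3. In co-culture 49 of 54 were lower than in OP9, and the sign differed between probe sets in Mcm6 and Mcm7. The 4 probe sets of Tyms read 10.4 to 41.3 on all arrays, while a probe set listed for both Tyms and its pseudogene Tyms-ps, which was not counted, read 258 and 245 in OP9, 213 and 211 in co-culture, 177 and 299 in NIH3T3 and 645 and 688 in MC3T3.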

How the data were processed

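The authors deposited 1 intensity per probe set and array, linear and already normalized, for 45101 probe sets. Their methods mention RMA Express, affylmGUI and dChip, and which of them wrote these values was not given in the sources used here. Gene names came from the array's annotation table, which listed 1 symbol for 34958 probe sets, several for 932 and none for 9211, and only the first kind was used. For each gene the probe set with the largest average log2 value was kept (no pseudocount), and a test was made where at least 2 of 8 arrays reached 100.

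Group means were estimated with lmFit and eBayes (limma 3.58.1, R 4.3.3) over all 4 groups, which leaves 4 residual degrees of freedom, and p was adjusted by Benjamini-Hochberg over 10084 genes. Calls needed an adjusted p below 0.05, with or without 2-fold as a minimum. Folds of dim probe sets are compressed by background, and precision is limited by having 2 arrays a group. Promoter windows came from RefSeq (GRCm38.p6). No columns of other samples were present.

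The members and the lists were chosen with earlier results of these data known. The lists held other mitotic genes, other replication genes, cyclins with CDKs and E2F-RB regulators, CDK inhibitors, and markers of pre-B cells, of leukocytes, of stroma and of osteoblasts. By rule the text names all 31 members, with every array's value for the 30 called at 2-fold in any comparison, and all CDK inhibitors. From the other cell cycle lists it names up to 4 genes past 2-fold per comparison. The rule covered the marker lists too, but not all of their genes past 2-fold are named, Cxcl12 among those left out. Marker genes, Ccnd1 and Ccnd2 are named besides to complete a description. Results were recomputed without the filter or with it at 200, after quantile normalization or median scaling, with 16 added before the log, on the compared arrays only, with a trended robust prior, with a replicate block, with probe sets averaged per gene, without _x_at and _s_at probe sets, and without each array.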

Additional observations from a re-analysis of the deposited data

How the results depend on the processing

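Without a minimum fold, all 30 members kept their direction and their call in OP9 against MC3T3 under every alternative that tested them, and in MC3T3 against NIH3T3 the 1 lost call was that of Cdc20 without MC3T3 replicate 1. In co-culture 28 of 536 recomputed member values lost the call, those of Aurkb, Cdk1, E2f1, Mcm3 and Rrm2. In OP9 against NIH3T3 27 lost and 4 gained it with the sign kept. There Bub1 also lost it as its sign turned with the mean of probe sets (limma adjusted p = 0.0776). Mcm2 gained a call of the opposite sign without _x_at and _s_at probe sets (limma adjusted p = 0.00149). The numbers called in co-culture at 2-fold were 4 to 7 with 1 array left out, and 4 after quantile normalization or with a pseudocount of 16. They were 7 after median scaling, 5 of 27 tested with the mean of probe sets and 7 of 29 tested without _x_at and _s_at probe sets. The causes were not tested. With 2 arrays per group, 4 residual degrees of freedom and lone arrays assumed to vary like the other groups when their partner is left out, small differences such as those of E2f1 rest on a thin estimate of the spread.

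In OP9 against NIH3T3, scaling shifted the median of all genes from 0.16 to 0.01 after quantile normalization and to 0.23 after median scaling. There the members called at 2-fold numbered 3 after quantile normalization, 2 after median scaling and 1 to 3 with 1 array left out, and those called without a minimum fold 15 of 27 tested with the mean of probe sets. The mitotic median was -0.040 after quantile normalization, 0.16 after median scaling and 0.043 to 0.16 with 1 array left out, and the replication median was -0.38 without _x_at and _s_at probe sets. In OP9 against MC3T3 the mitotic median was -1.51 with the mean of probe sets. In MC3T3 against NIH3T3, where the median of all genes was 0.12, 0.01 after quantile normalization and 0.21 after median scaling, the mitotic median was 1.69 after quantile normalization, 1.93 after median scaling, 1.76 with a pseudocount of 16, 1.4998 with the mean of probe sets and 1.77 without _x_at and _s_at probe sets, and the replication median was 1.45, 1.64, 1.44 and 1.38 under the same settings apart from the pseudocount.

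Signs turned in 2 members of co-culture that had not been called, Mcm6 with the mean of probe sets (0.048) and Mcm7 without _x_at and _s_at probe sets (0.063). In OP9 against NIH3T3 signs turned after quantile normalization for Cdk1 (-0.017), Plk1 (-0.040) and Cenpe (-0.18), after median scaling for Nusap1 (0.0054), with the mean of probe sets for Bub1 (0.20), Cenpe (-0.017), Mcm2 (-0.14) and Mcm6 (0.086), and without _x_at and _s_at probe sets for Mcm2 (-0.47). With 1 array left out values ran from -0.046 to 0.076 for Cenpe, from -0.14 to 0.024 for Nusap1 and from -0.14 to 0.0039 for Mcm3. Of these Bub1 alone had been called in the main setting, and its other probe set read 16.9 to 118.7. Mcm2, not called there, passed as lower in OP9 without _x_at and _s_at probe sets.

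The replicate numbers did not pair the arrays. Deviations of same-numbered arrays correlated between -0.004 and 0.181 over genes, and with the replicate number as a block the members called without a minimum fold in co-culture were 26 in place of 27, while the other counts of called members did not change.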
